A study of Citrus maxima and Citrus sinensis with 12 samples.

Results

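miR398 and miR397-3p are the 2 copper-related miRNAs that were counted in citrus root tips under long-term excess boron. They were taken by identifier (scaffold_2_7390 for miR398 and scaffold_2_6569 for miR397-3p) and are 2 of 172 miRNA entries, both among the 170 that were abundant enough to be tested. Small RNA was sequenced from root tips of C. grandis (pummelo, recorded as Citrus maxima) at 400 µM and at 10 µM H3BO3, and of C. sinensis (sweet orange) at 400 µM and at 10 µM, with 3 libraries in each of the 4 groups. Boric acid supplied the boron, 10 µM was the control level, and all groups received the same nutrient solution, so that the controls were supplied with boron too. The seedlings were 11 weeks old when they were set in sand, and irrigation at these levels lasted 15 weeks. RNA of 5 replicates was mixed for a library, per the labels' protocols. The labels do not say if the 3 libraries of a group came from different plants, so p-values measure only the spread between these libraries, which may be technical. The tissue label could not be checked against marker genes, because only miRNAs were counted.

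In Arabidopsis, the families miR397, miR398, miR408 and miR857 accumulate when copper is short, under the transcription factor SPL7, and lower the transcripts of copper proteins. miR398 acts on copper/zinc superoxide dismutases, which detoxify superoxide, and on their copper chaperone, whereas miR397 acts on laccases, copper oxidases of the cell wall that polymerise lignin. The family name of each citrus entry rests on the homologue given in the deposited table, rice osa-miR398b for miR398 and maize zma-miR397b-3p for miR397-3p.

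The sequences show which strand of each hairpin the entry is named for. That (mature) strand is given with its seed, bases 2 to 8, in capitals, and the opposite (star) strand of the same hairpin follows it, all from 5′ to 3′.
miR398 mature: uGUGUUCUcaggucgccccug
miR398 star: ggggcgacaugagaucacaug
miR397-3p mature: aCCAGCGCugcacucgaucaug
miR397-3p star: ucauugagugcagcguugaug
The miR398 strand of 21 nt and its star of 21 nt faced each other over 19 positions, 17 of them Watson-Crick pairs. The miR397-3p strand of 22 nt and its star of 21 nt faced each other over 20 positions, with 16 Watson-Crick and 2 G:U pairs. In other plants it is the 5p strand of miR397 that is known to guide laccase silencing, and at this locus the 5p strand is the one listed as the star. Neither star was itself the mature sequence of another entry among the 126 distinct ones. The deposited files do not say whether the counts of an entry hold reads of its mature strand alone or of its star as well, so a part of the miR397-3p counts may be 5p reads. Each mature sequence had 1 locus, neither seed occurred in another entry, and the closest other mature sequence was 9 edits away from each.

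Both loci lay on scaffold 2, in coordinates of the deposited table, for which no genome build is named. The miR398 hairpin window ran from 8093621 to 8093870 on the minus strand and the miR397-3p window from 32706382 to 32706631 on the plus strand, each 250 nt long and 24612761 nt apart. The nearest other miRNA entry was csi-miR477b for miR398, at 1709191 nt, and the unnamed scaffold_2_8924 for miR397-3p, at 1070405 nt. The genes at these positions were not analysed here.

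The deposited table of predicted targets gave miR398 1 gene, Ciclev10009458m.g.v1.0, listed under C. grandis and again under C. sinensis. It is annotated with a plastocyanin-like domain, the fold of small blue copper proteins. For miR397-3p 0 targets were listed in either species. Across the 39 lines of that table, 28 for C. grandis and 11 for C. sinensis, 0 annotations named a laccase and 0 a superoxide dismutase. These lines cover only 13 miRNAs in C. grandis and 5 in C. sinensis, and all but the miR398 line of each species belong to other miRNAs. The classical targets of the 2 families were thus not among the listed predictions, and target transcripts were not measured.

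Library totals ran from 479090 to 1062488 counts, and miR398 took 0.00765% to 0.114% of them, miR397-3p 0.00218% to 0.0250%. These totals count a sequence at each of its loci. With each sequence counted once they ran from 282149 to 577150, so that the shares of both miRNAs would be higher. Levels are given as CPM, the count relative to the library size, scaled by trimmed means. In bulk root tips, fewer cells that hold a miRNA and less of it per cell cannot be told apart.

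**Figure D1:**
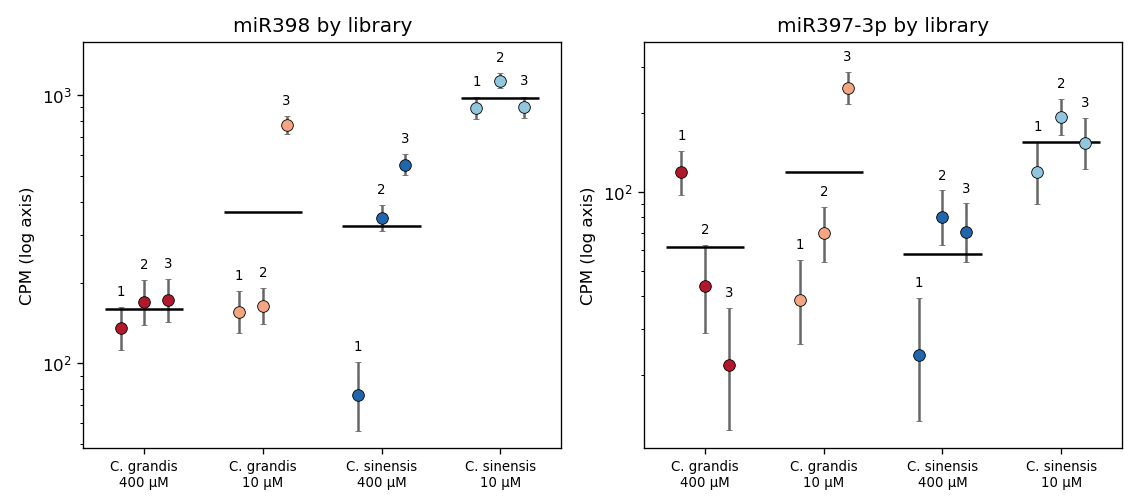
CPM of miR398 (left) and miR397-3p (right) on a log axis in each of the 12 libraries; points are libraries with their replicate number, vertical bars the 95% exact counting interval and horizontal lines the group mean (n = 3). Replicate 3 of C. grandis at 10 µM and replicate 1 of C. sinensis at 400 µM stand apart from the other libraries of their groups in both panels.

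miR398 was at 136, 170 and 172 CPM in replicates 1, 2 and 3 of C. grandis at 400 µM, from 121, 109 and 118 counts, against 156, 164 and 775 CPM at 10 µM, from 125, 165 and 621 counts. Of the 6 C. grandis libraries 5 were thus close together, and only replicate 3 at 10 µM was high. In C. sinensis miR398 was at 76.1, 348 and 551 CPM at 400 µM, from 48, 304 and 484 counts, against 895, 1133 and 903 CPM at 10 µM, from 420, 906 and 474 counts. Each C. sinensis library at 400 µM was thus lower than each at 10 µM, but the 400 µM libraries spread over a 7.24-fold range, whereas the 10 µM libraries spread over 1.27-fold. The 95% counting intervals of the 3 C. sinensis libraries at 400 µM were 56.1 to 101, 310 to 390 and 503 to 602 CPM and did not overlap.

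miR397-3p was at 119, 43.6 and 21.9 CPM in replicates 1, 2 and 3 of C. grandis at 400 µM, from 106, 28 and 15 counts, against 38.7, 69.6 and 250 CPM at 10 µM, from 31, 70 and 200 counts. The C. grandis groups overlapped, and the highest library was again replicate 3 at 10 µM. In C. sinensis miR397-3p was at 23.8, 80.2 and 70.6 CPM at 400 µM, from 15, 70 and 62 counts, against 119, 194 and 154 CPM at 10 µM, from 56, 155 and 81 counts. As for miR398, the C. sinensis groups did not overlap, 400 µM was the lower, and replicate 1 at 400 µM was lowest.

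Ordered by mean level, miR398 was highest in C. sinensis at 10 µM (977 ± 135 CPM), then in C. grandis at 10 µM (365 ± 355 CPM), C. sinensis at 400 µM (325 ± 238 CPM) and C. grandis at 400 µM (159 ± 20.5 CPM; SD, n = 3 each). Of the neighbours in this order only the first 2 groups had ranges that did not overlap. For miR397-3p the order was C. sinensis at 10 µM (156 ± 37.3 CPM), C. grandis at 10 µM (119 ± 114 CPM), C. grandis at 400 µM (61.4 ± 50.8 CPM) and C. sinensis at 400 µM (58.2 ± 30.2 CPM; SD, n = 3 each), and all neighbours overlapped. Both miRNAs were among the most variable between libraries of a group. The within-group SD of log2 CPM was 0.99 for miR398 and 1.01 for miR397-3p, the 5th and the 3rd highest of the 170 tested entries, whose median was 0.31.

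The C. grandis library at 10 µM that held the high values, replicate 3, was also high in a few other miRNAs. In it 5 of 170 tested entries were more than 2-fold above the highest of the other C. grandis libraries. These were csi-miR3951 (2415 against at most 397 CPM), miR398, ath-miR164b-3p (921 against at most 218 CPM), ci-miRN17 (231 against at most 79.8 CPM) and miR397-3p. These entries were picked after their values were seen. The same count was not made for the other libraries, so it does not show that this library stands apart. Among the 12 libraries, replicate 3 held the highest level of 17 entries (10%), and C. grandis 400 µM replicate 1 that of 31 entries (18.2%). Why these 5 entries were high in replicate 3 was not tested.

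Long-term excess boron was first compared with the control level within C. grandis. With edgeR's quasi-likelihood test over all 12 libraries and Benjamini-Hochberg adjustment over 170 entries, 2 entries (1.18%) had an adjusted p under 0.05, and neither copper-related miRNA was among them. miR398 had a log2 fold change of −1.20 (SE 0.65, 95% interval −2.61 to 0.22, adjusted p = 0.339) and miR397-3p of −0.93 (SE 0.69, 95% interval −2.43 to 0.57, adjusted p = 0.498). The groups of neither miRNA were apart, against 9 entries (5.29%) whose 400 µM libraries were all lower. Replicates 1 and 2 at 10 µM fell inside the 400 µM range for both miRNAs. Without 10 µM replicate 3, miR398 was at −0.29 and miR397-3p at −0.16. For miR397-3p other libraries counted as well, with −1.86 without 400 µM replicate 1 and −0.53 without 400 µM replicate 3, and for miR398 the replicate block gave −0.77 (adjusted p = 0.515). In the authors' deposited table the C. grandis values were −1.22 for miR398 and −0.96 for miR397-3p on the log2 scale, each with a false discovery rate of 0.995.

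The same comparison in C. sinensis placed the 2 copper-related miRNAs at the bottom of all miRNAs. Of the 170 log2 fold changes that of miR398 was the lowest, at −1.58 (SE 0.65, 95% interval −2.98 to −0.18), and that of miR397-3p the next lowest, at −1.41 (SE 0.70, 95% interval −2.92 to 0.10), while the median entry was at −0.00063. As fractions of the 10 µM level these were 0.334 for miR398 and 0.377 for miR397-3p. Neither passed in edgeR's quasi-likelihood test (adjusted p = 0.887 for each, unadjusted p = 0.0296 and 0.0654). This test called 0 of 170 entries (0%) with 3 (1.76%) at unadjusted p under 0.05, and DESeq2 called 0 with 4. Groups that did not overlap, with 400 µM lower, were found for 11 entries (6.47%), which included both miRNAs. Without 400 µM replicate 1 the values were −1.21 and −1.11, and without 400 µM replicate 3 miR398 was at −2.15.

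In C. sinensis the call differed between tools and choices of libraries, while the direction did not. In the authors' deposited table both passed, miR398 at a log2 fold change of −1.60 with a false discovery rate of 0.00545 and miR397-3p at −1.42 with 0.0289, and these were the only 2 of the 11 entries listed for C. sinensis with a rate under 0.05. Why its p-values are lower than those above was not tested. With the 6 C. sinensis libraries alone, miR397-3p was at −1.52 in edgeR's quasi-likelihood test (adjusted p = 0.428), at −1.53 in edgeR's likelihood ratio test (adjusted p = 0.00746) and at −1.41 in DESeq2 (adjusted p = 0.0256), whereas miR398 passed in none of these (adjusted p = 0.588, 0.111 and 0.799). A replicate block treats equal replicate numbers as pairs, which the labels do not state. Over these 6 libraries in edgeR it gave −1.58 for miR397-3p (adjusted p = 0.0416) and −1.97 for miR398 (adjusted p = 0.194). In log2 CPM, 400 µM minus 10 µM of equal number was −3.51, −1.69 and −0.71 for miR398 and −2.21, −1.25 and −1.10 for miR397-3p. Since the groups did not overlap, any pairing gives differences below 0, and only their sizes depend on it.

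**Figure D2:**
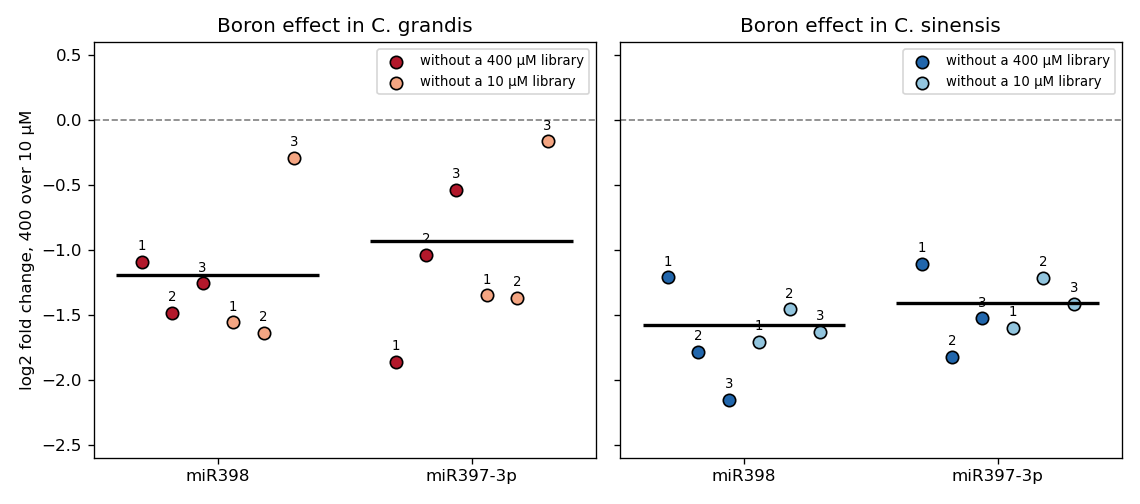
Log2 fold change of miR398 and miR397-3p at 400 over 10 µM H3BO3 in C. grandis (left) and C. sinensis (right), with all libraries (black lines) and with 1 library of that species left out (points, numbered by the replicate left out and coloured by its boron level). In C. grandis both values move to −0.29 and −0.16 without 10 µM replicate 3, and in C. sinensis the points run from −2.15 to −1.11.

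Averaged over both species, the boron effect was −1.39 for miR398 (SE 0.46, 95% interval −2.38 to −0.40) and −1.17 for miR397-3p (SE 0.49, 95% interval −2.23 to −0.11). Neither passed in edgeR (adjusted p = 0.146 and 0.287), which called 1 of 170 entries (0.588%), csi-miR3951. miR398 had the 4th and miR397-3p the 5th lowest value of all entries. Both intervals lay below 0, and the unadjusted p was 0.00992 for miR398 and 0.0337 for miR397-3p, where 7 entries (4.12%) were lower at unadjusted p under 0.05. DESeq2 called miR398 (−1.44, adjusted p = 0.0150) but not miR397-3p. Without C. grandis 10 µM replicate 3 the means were −0.98 and −0.81. Values below 0 in both species were found for 49 entries (28.8%), both miRNAs included.

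**Figure D3:**
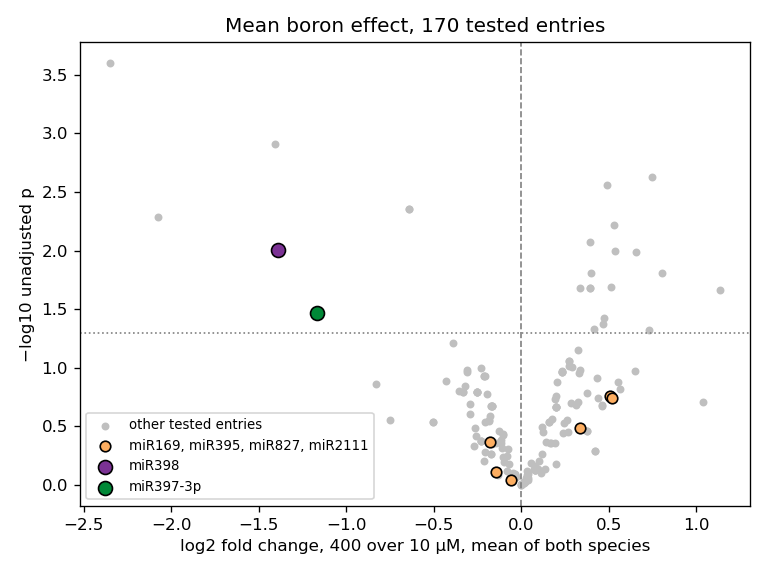
Boron effect averaged over both species for the 170 tested entries, with the log2 fold change on the x axis and −log10 of the unadjusted p from edgeR on the y axis, where the dotted line marks 0.05. miR398 (−1.39) and miR397-3p (−1.17) lie to the far left, above the dotted line, and the other mineral-nutrient entries lie below it.

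Whether the species differed in their response was tested as the C. grandis minus the C. sinensis boron effect. The difference was 0.39 for miR398 (SE 0.90, 95% interval −1.57 to 2.34) and 0.48 for miR397-3p (SE 0.97, 95% interval −1.63 to 2.59), each with adjusted p = 0.987 in edgeR. The intervals span more than 1 log2 unit on either side of 0, so neither equal nor unequal responses were shown. edgeR called 0 of 170 entries (0%), with 9 (5.29%) at unadjusted p under 0.05, and DESeq2 called 2. Without C. sinensis 400 µM replicate 1 the differences turned to −0.11 and −0.032, without C. grandis 400 µM replicate 1 that of miR397-3p to −0.45, and without C. grandis 10 µM replicate 3 they were 1.37 and 1.29.

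Between species, miR398 was lower in C. grandis at both boron levels, although not past the threshold. At 400 µM it was at 159 ± 20.5 CPM in C. grandis and 325 ± 238 CPM in C. sinensis (SD, n = 3 each), which is −1.04 in log2 (SE 0.65) with an adjusted p of 0.221 in edgeR. This was −1.70 without C. sinensis 400 µM replicate 1 (adjusted p = 0.0545). At 10 µM it was at 365 ± 355 CPM in C. grandis and 977 ± 135 CPM in C. sinensis, which is −1.42 in log2 (SE 0.64) with an adjusted p of 0.118 in edgeR. The 10 µM groups did not overlap, as in 34 entries (20%) with C. grandis lower, and edgeR called 48 entries (28.2%) at 10 µM and 49 (28.8%) at 400 µM. The call at 10 µM depended on single libraries, on the tool and on the replicate block. Without C. grandis 10 µM replicate 3 the difference was −2.62 (adjusted p = 0.00401), without C. sinensis 400 µM replicate 1 it was −1.59 (adjusted p = 0.0343), and in DESeq2 it was −1.59 (adjusted p = 0.0205). With the replicate block it was −1.80 (adjusted p = 0.0272), although the labels do not pair equal numbers between species. Over the tested entries, deviations from group means of equal numbers correlated between species at −0.00023, −0.049 and 0.30 at 400 µM. At 10 µM they correlated at −0.046, 0.019 and −0.15. Unequal numbers were not compared between species.

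miR397-3p did not pass between species at either level. At 400 µM its log2 difference was 0.082 (SE 0.70, 95% interval −1.44 to 1.60, adjusted p = 0.930), and the sign turned under 7 of 9 alternatives with no library left out of its groups, to −0.24 at the lowest. With 1 library left out it kept its sign in 5 of 12 fits, from −0.85 without C. grandis 400 µM replicate 1 to 0.48 without replicate 3 of that group. Relative to the median of all entries it was −0.096, and −0.17 to −0.077 under other scalings and filters. At 10 µM it was −0.39 (SE 0.67, 95% interval −1.86 to 1.07, adjusted p = 0.662), and leaving out a C. grandis library of that level gave −1.53 (replicate 3 left out) or 0.023 (replicate 1 left out).

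**Figure D4:**
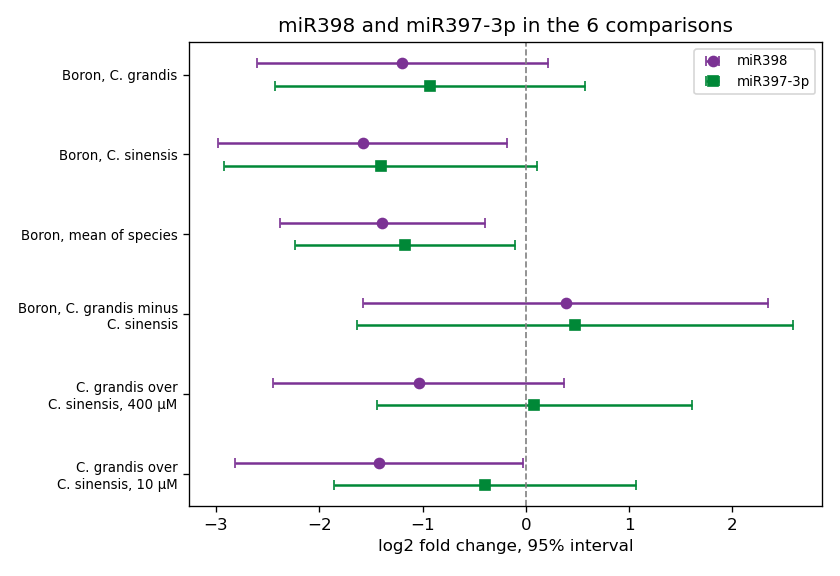
Log2 fold change with its 95% interval for miR398 (circles) and miR397-3p (squares) in the 6 comparisons from edgeR over all 12 libraries. The intervals of both miRNAs lie below 0 for the boron effect averaged over species, and both span 0 for the difference of the boron effects.

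The 2 miRNAs followed each other across the C. sinensis libraries, while no relation was detected across the C. grandis libraries. Over all 12 libraries Pearson's r of their log2 CPM was 0.793 (permutation p = 0.003, adjusted p = 0.018) and Spearman's rho 0.72 (permutation p = 0.0108, adjusted p = 0.025). Without the 2 libraries farthest from the median of miR398, r was 0.714. In the 6 C. sinensis libraries r was 0.965 (exact permutation p = 0.0139, adjusted p = 0.025) and rho 0.943 (exact permutation p = 0.0167, adjusted p = 0.025), and without the 2 farthest libraries r was 0.972 over the 4 left, where the exact permutation p of 0.0833 is the smallest possible. With 5 libraries r was 0.869 when 400 µM replicate 1 was left out (exact permutation p = 0.0833), and 0.969 or 0.964 when 10 µM replicate 1 or 2 was left out (exact permutation p = 0.05 each). In the 6 C. grandis libraries r was 0.688 (exact permutation p = 0.314, adjusted p = 0.377) and rho 0.0286 (exact permutation p = 1, adjusted p = 1). The sign of r in C. grandis rested on 10 µM replicate 3, without which r was −0.81 (exact permutation p = 0.133). The p-values are two-sided and adjusted over these 6 relations, and whether r differs between the species was not tested. Libraries were permuted without regard to their group. Group differences that both miRNAs share can therefore raise r and lower these p-values, which do not test a relation within groups.

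Within groups the order of the libraries varied. In C. grandis at 400 µM the 2 miRNAs ran in opposite order, with replicate 1 the lowest for miR398 and the highest for miR397-3p. At 10 µM they ran in the same order in C. grandis and in C. sinensis, and in C. sinensis at 400 µM they shared the lowest library. As deviations from the group means, which take out the boron and species differences, r was 0.696 over 12 libraries, 0.629 in C. grandis and 0.918 in C. sinensis, given as a description. The counts of miR398 were 1.14 to 7.87 times those of miR397-3p in C. grandis at 400 µM and 2.36 to 4.03 times at 10 µM, and 3.20 to 7.81 times in C. sinensis at 400 µM and 5.85 to 7.50 times at 10 µM.

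**Figure D5:**
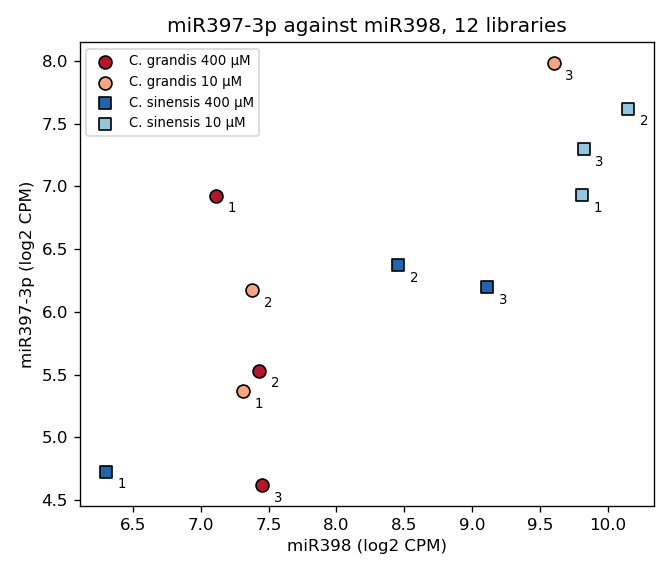
Log2 CPM of miR397-3p against log2 CPM of miR398 in the 12 libraries, with circles for C. grandis, squares for C. sinensis and the replicate number beside each point. The C. sinensis libraries rise together (r = 0.965), while the C. grandis libraries other than 10 µM replicate 3 share a narrow range of miR398 and a wide range of miR397-3p.

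By r over all 12 libraries, the most similar profile to that of each of the 2 miRNAs among all distinct sequences was that of the other. After it, the highest r with miR398 over the 12 libraries was 0.713 for the unnamed scaffold_2_6131, 0.630 for the unnamed scaffold_9_46098 and 0.585 for csi-miR3951, a family described in citrus. With miR397-3p it was 0.516 for bdi-miR166f, of a family that acts on class III HD-ZIP factors, 0.416 for the unnamed scaffold_2_8924 and 0.392 for ath-miR403-3p, of a family that acts on an Argonaute transcript. These were the 3 highest of 122 other sequences for each and are a description, since all share the same libraries and scaling. With the group means taken out, r with miR398 was 0.749 for scaffold_9_46098, above the 0.696 for miR397-3p.

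The 2 were set beside the other mineral-nutrient families, miR395 (sulfate assimilation), miR827 and miR2111 (phosphate supply) and miR169 (nuclear factor Y subunits, with a part in nitrogen supply). These had 7 tested entries with 5 sequences, the 3 miR395 entries sharing a sequence. The 2 miR169 entries rest on the homologues zma-miR169m-3p and osa-miR169i-5p.2, and whether these sequences act on the family's targets was not tested. By name, miR408, miR857 and miR399 had 0 entries each among those counted, so their levels are not known. In C. grandis 0 of 7 passed for boron in edgeR, with a median log2 fold change of 0.50 against 0.070 over all 170 entries, and 1 of 7 had a value below 0, against 75 of 170 (44.1%). The 3 miR395 entries, a single sequence that enters this median and count 3 times, were at 1.07 (adjusted p from 0.253 to 0.269). miR827 was at 0.50. In C. sinensis 0 of 7 passed, with a median of −0.049 and 6 of 7 below 0, against 85 of 170 (50%). The 3 miR395 entries among these 6 are a single sequence at −0.049 to −0.034, and miR2111 was at −0.66, the 5th lowest of all entries.

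Averaged over both species, 0 of the 7 passed for boron in edgeR, with values from −0.18 to 0.52, so that in this comparison miR398 and miR397-3p lay below all 7. In the difference of boron effects 0 of 7 passed. Between species 3 of 7 passed at each boron level, all miR395 and higher in C. grandis. These 3 of 7 entries are 1 of 5 sequences. Of all entries 28.8% passed at 400 µM and 28.2% at 10 µM. Those shares count a sequence at each of its loci, so they compare with the entries and not with the sequences. The miR395 entry scaffold_3_12417 averaged 257 CPM in C. grandis and 35.6 CPM in C. sinensis at 400 µM, a log2 difference of 2.83 (adjusted p = 0.00126). At 10 µM it averaged 122 CPM in C. grandis and 37.2 CPM in C. sinensis, a log2 difference of 1.71 (adjusted p = 0.0291).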

How the data were processed

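Small RNA of 12 root-tip libraries was analysed from the deposited tables. Per the labels' protocols, a TruSeq kit for small RNA and single-end Illumina sequencing were used. For the aligner, miRNA caller, target predictor and build no name was found in the labels or headers. The submitters' processing notes name DESeq. The authors deposited an expression table of raw counts for each miRNA locus. The authors' deposited table of boron-responsive miRNAs holds log2 fold changes with p-values and false discovery rates. The deposited table of identified miRNAs holds a prediction score (not used here), positions and sequences, and the target table holds gene identifiers.

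The test was edgeR's quasi-likelihood test (edgeR 4.0.16, R 4.3.3). Library sizes were scaled by trimmed means, filterByExpr (count minimum 10) kept 170 of 172 entries, and all 12 libraries entered with a mean for each group. A standard error is the size of the log2 fold change divided by the square root of its F. Log2 CPM used a prior count of 2. Correlations used 100000 permutations for 12 libraries and exact permutation for 6 (SciPy 1.17.1). Library totals were 479090 to 1062488 counts, and counting intervals cover counting error only. Replicate libraries had a Pearson r of log2 CPM of 0.968 to 0.995 and none were identical. Scripts were tested on simulated data. The alternatives were other scalings, filters and tools (DESeq2 1.42.0), merged loci, a robust fit, fewer libraries and the replicate block.

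Equal replicate numbers of both boron levels correlated in their deviations from group means in C. sinensis (0.40, 0.24 and 0.22). An unequal pair there, 400 µM replicate 3 with 10 µM replicate 2, was at 0.20, and the other unequal pairs were negative. In C. grandis equal numbers were at −0.12, −0.23 and 0.20. The unequal pair of 400 µM replicate 1 with 10 µM replicate 2 was at 0.50, and the other unequal pairs ran from −0.31 to 0.12. Neither the data nor the labels thus settle a pairing. Named miRNAs were both members, the 3 entries most like each, and a list of copper and mineral-nutrient families. Members and lists were chosen with earlier results of these data known.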

Additional observations from a re-analysis of the deposited data

How the results depend on the processing

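Of 260 values of miR398 and miR397-3p under alternatives, 234 kept their direction and their side of the threshold, 8 passed only under the alternative and 18 changed sign. For C. sinensis miR397-3p passed for boron with the 6 libraries and the replicate block (−1.58), in DESeq2 on them (−1.41) and in edgeR's likelihood ratio test on them (−1.53), the last 2 chosen after seeing the data. miR398 passed in DESeq2 for the boron effect averaged over species (−1.44) and for the species difference at 10 µM (−1.59), and there also with the replicate block (−1.80). The species difference of miR397-3p at 400 µM was 0.082 and turned to −0.076 under median-of-ratios scaling, −0.026 under total counts, −0.078 in DESeq2, −0.24 without a filter and −0.24 with a mean CPM of at least 10, −0.0081 with merged loci and −0.11 with the 6 libraries of that level. Scaling shifted the median of all entries in that comparison by −0.18 (median-of-ratios) and −0.25 (no filter), and total counts shifted it by −0.24 for boron in C. grandis. The cause of these changes was not tested further.

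Entries called for boron in C. grandis, 2 in all, were 4 under median-of-ratios, 4 under total counts, 5 in DESeq2, 0 with the 6 libraries and 1 with their replicate block. In C. sinensis, 0 in all, it was 1 in each of the 3 fits that called miR397-3p. Averaged over species, 1 in all, it was 2 under total counts, 6 in DESeq2, 2 without a filter, 2 with the CPM filter, 0 in the robust fit and 2 with the replicate block. For the difference of effects, 0 in all, it was 1 under median-of-ratios, 2 under total counts, 2 in DESeq2, 2 without a filter, 1 with the CPM filter, 1 with merged loci and 2 with the replicate block. Merged loci gave 28 entries for the species difference at 400 µM, against 49.

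With each library left out in turn, counts ran from 0 to 8 for boron in C. grandis, 0 to 5 averaged, 0 to 2 for the difference, 19 to 62 between species at 400 µM and 23 to 49 at 10 µM. miR398 ran from −0.11 to 1.37 in the difference, from −1.70 to −0.76 between species at 400 µM and from −2.62 to −1.06 between species at 10 µM. miR397-3p ran from −0.45 to 1.29 in the difference, −0.85 to 0.48 between species at 400 µM and −1.53 to 0.023 at 10 µM. The correlation of both in C. grandis ran from −0.81 to 0.889, and was −0.402 without the 2 farthest libraries. In C. sinensis it ran from 0.869 to 0.988 (lowest exact permutation p = 0.0167, highest 0.0833), and without the 2 farthest libraries it was 0.972 (exact permutation p = 0.0833). miR397-3p had only 15 counts in C. grandis 400 µM replicate 3 and in C. sinensis 400 µM replicate 1. Counting error limits its level in these libraries, with 95% counting intervals of 12.3 to 36.2 and 13.3 to 39.2 CPM.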
